A study of Mus musculus with 16 samples.

Results

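The myosin light chain genes of mouse C2C12 cells were followed through growth and differentiation in 4 lines. The 8 members were taken by symbol (Myl1, Myl2, Myl3, Myl4, Mylpf, Myl6, Myl6b and Myl9) out of 24497 genes in the deposited tables, and their values were summed over the RefSeq transcripts of each symbol. C2C12 is a myoblast line that divides in growth medium and forms myotubes when serum is withdrawn. Poly(A) RNA of 16 libraries was measured, in 8 groups of 2. The 4 lines were labelled wild type (WT) or MYOD-/-, the latter made with CRISPR-Cas9 and screening of single cells, and each was stably transfected with an empty vector (EV) or with a MUNC vector (spliced form); MUNC is an RNA made from the enhancer region of Myod1. Each line was sampled while proliferating (GM) and while differentiating (DM). The labels give C57BL/6 as the strain background and skeletal muscle of postnatal day 21 as the tissue source of all samples. The labels do not say whether the 2 libraries of a group are separate cultures. The p-values therefore measure the spread between these libraries, which may be technical. Each pairing of genotype label and vector is a single line. Effects of the genotype label or of MUNC therefore cannot be told apart from other differences between lines.

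A myosin motor holds a pair of heavy chains, and the neck of each heavy chain binds 1 essential and 1 regulatory light chain. The regulatory chain is phosphorylated by myosin light chain kinases, which switches on non-muscle and smooth muscle myosin and tunes striated muscle myosin. Differentiating muscle adds sarcomeric light chains to the non-muscle set that dividing cells already use. Myl1 encodes the essential chains of fast skeletal muscle, and Mylpf encodes the fast skeletal regulatory chain. Myl4 encodes the essential chain of embryonic muscle and of the atrium. Myl3 and Myl2 encode the essential and regulatory chains of slow skeletal muscle and of the ventricle. Myl6 encodes the essential chain of non-muscle and smooth muscle myosin, Myl6b a related essential chain found in slow skeletal muscle and non-muscle tissue, and Myl9 a regulatory chain of smooth muscle and non-muscle myosin.

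Total estimated counts ran from 35832002 to 107732971 per library. Myod1 went against the labels. It had 1 to 18 estimated counts in the 4 libraries labelled WT EV, 162 to 235 in those labelled WT MUNC and 229 to 1858 in those labelled MYOD-/-. Which bases of Myod1 were targeted is not known from the labels. The groups are therefore called WT-labelled and MYOD-/- labelled throughout. MUNC, listed as Gm45923, was at 10398 to 15551 TPM (abundance per transcript length, scaled to a fixed library total) in the WT-labelled MUNC libraries and at 283 to 750.0 in the MYOD-/- labelled MUNC libraries, against 6.72 to 86.4 in the EV libraries. Zrsr1 took 1.49% to 13% of the counts in every library numbered 2 and at most 0.0348% in those numbered 1. Of 7 skeletal muscle lineage markers, 4 to 6 reached 1 TPM in both libraries, depending on the group. Their summed level was 113 to 239 TPM in GM and 149 to 590.5 TPM in DM. Pax7 was listed at 0 in WT-labelled MUNC GM.

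Sequences are shown for the exons that tell the Myl1 and Myl6 transcripts apart, because the results turn on which transcript carried the reads. Myl1, on the minus strand of chromosome 1 (66924295 to 66947932 in GRCm38.p6), has 2 transcripts in the files. The longer protein, MLC1F (188 codons), starts at an upstream promoter, and the shorter, MLC3F (150 codons), starts inside the gene. Each splices its own short coding exon to the common part. They were taken from the GRCm38 genome, coding strand, at chr1:66934246-66934273 for MLC1F and chr1:66934518-66934542 for MLC3F:
MLC1F coding exon: atcgagttctctaaggagcaacaggagg
MLC3F coding exon: tccttcagtgctgaccagattgccg
Myl6, on the minus strand of chromosome 10 (128490859 to 128493886), has 5 transcripts in the files, and its most abundant pair differ by an exon of 45 bases before the last exon. That exon carries its own stop codon, so the coding end differs while both proteins have 151 codons. The coding part of the added exon lies at chr10:128491739-128491764, and the end used without it at chr10:128491008-128491033:
Myl6 coding end with the added exon: catttgtgaggcatatcctgtcgggg
Myl6 coding end without the added exon: agcttgtccggatggtgctgaatggc
Both Myl6 ends have 26 bases, and no base is marked in these 4 sequences.

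Levels of the 8 genes differed by orders of magnitude when set side by side per length. In GM, Myl6 was at 2140.0 to 3608 TPM over 8 libraries, with a median of 2659.8. Myl9 came next, at 16 to 150.1 TPM. Myl6b (4.3 to 8.42 TPM), Myl4 (2.58 to 5.54 TPM) and Mylpf (2.12 to 4.38 TPM) were low and their ranges overlapped. Myl1 was at 0 to 0.981 TPM in GM, with 0 counts in 3 of the 8 libraries. In DM, the medians over 8 libraries were 2711 TPM for Myl6, 230.0 for Myl9, 165 for Mylpf, 111 for Myl1, 19.1 for Myl6b and 17.5 for Myl4.

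**Figure D1:**
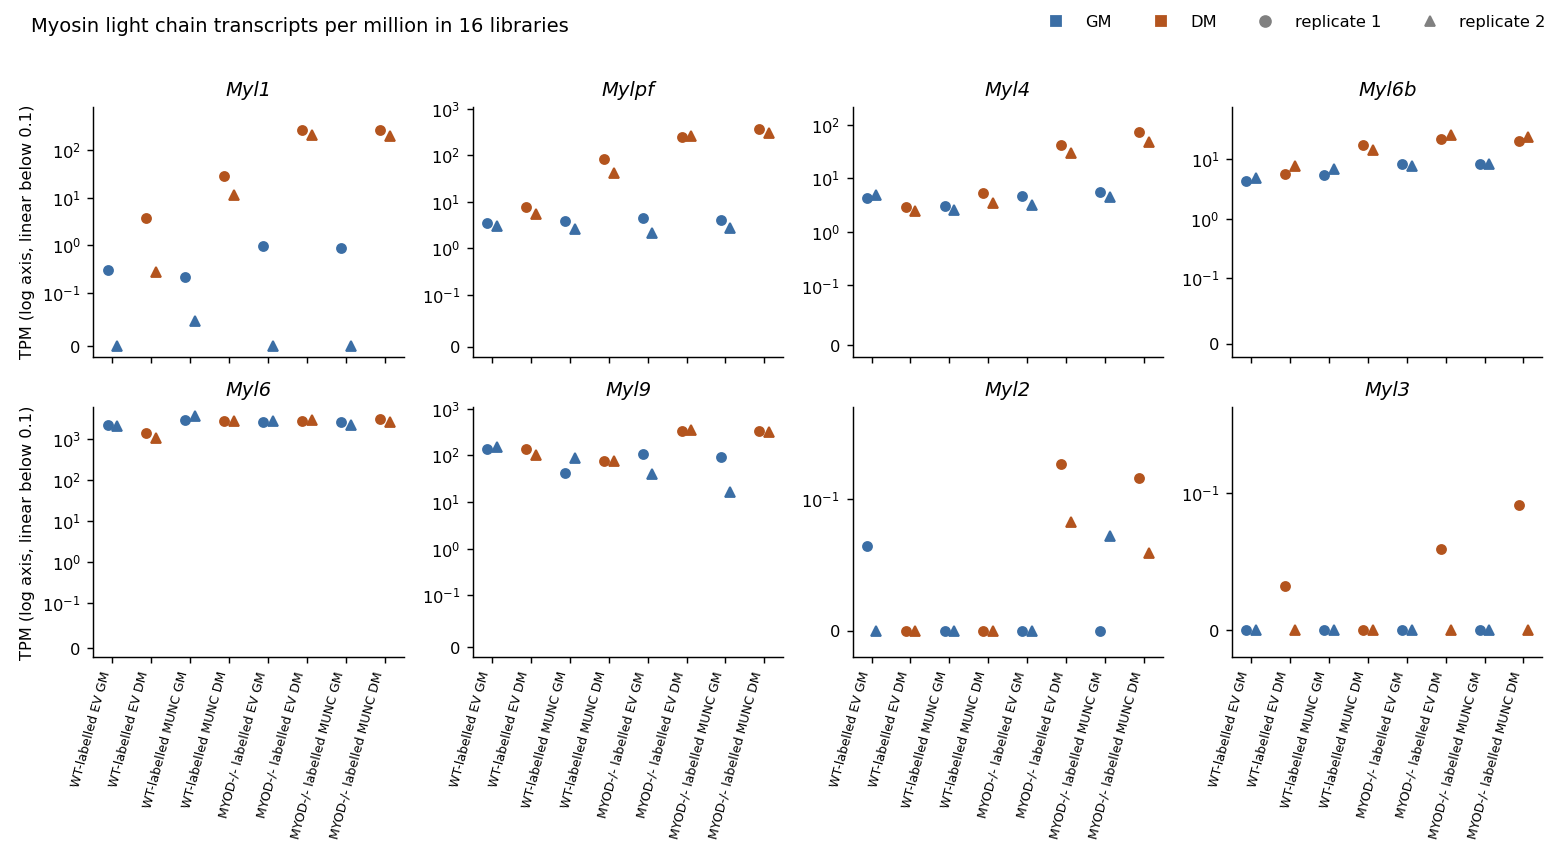
TPM of each of the 8 light chain genes on a log axis (linear below 0.1) in the 8 groups; circles are replicate 1, triangles replicate 2, blue is GM and brown is DM. Myl1 and Mylpf are highest in the 4 MYOD-/- labelled DM libraries, at 193 to 364 TPM, while Myl2 and Myl3 stay under 0.2 TPM in all 16 libraries.

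Myl2 and Myl3, the slow and ventricular chains, were almost absent. Myl2 had 8 estimated counts over all 16 libraries and no more than 2 in any. Myl3 had 4 counts in all, also no more than 2 in any. Neither passed the filter on low counts, so 6 of the 8 members were tested. Of those 6, Myl1 passed the minimum of 0.164 CPM (counts scaled to a fixed library total) in 2 of 8 GM libraries and in 7 of 8 DM libraries, so it entered the test mainly through the groups where it is high; the other 5 passed in all 16. A change could therefore be found for the tested members only.

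The fast skeletal chains rose with differentiation in 3 of the 4 lines. In the MYOD-/- labelled EV line, 5 of the 6 tested members rose and 0 fell, by edgeR's quasi-likelihood test at an adjusted p under 0.05. Of all 14972 genes tested there, 43.2% passed, 23.5% higher and 19.7% lower; such shares are called the background from here on. In the MYOD-/- labelled MUNC line 5 rose and 0 fell (background 44.8%, 24.4% higher and 20.4% lower). In the WT-labelled MUNC line 3 rose and 0 fell (background 39.8%, 20.5% higher and 19.2% lower). In the WT-labelled EV line 0 rose and 2 fell (background 37.5%, 19.2% higher and 18.3% lower). The median log2 change over all tested genes was 0.02, 0.06, 0.08 and 0.05 in WT-labelled EV, WT-labelled MUNC, MYOD-/- labelled EV and MYOD-/- labelled MUNC.

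Mylpf, the fast regulatory chain, was at 3.46 and 3.04 TPM in WT-labelled EV GM and at 7.66 and 5.57 TPM in WT-labelled EV DM. It went from 3.77 and 2.55 TPM to 82.2 and 40.8 TPM in the WT-labelled MUNC line. The MYOD-/- labelled EV line went from 4.38 and 2.12 TPM to 247 and 258 TPM, and the MYOD-/- labelled MUNC line from 4.12 and 2.79 TPM to 364 and 306 TPM. The GM groups overlapped each other, while the 4 DM groups were ordered WT-labelled EV, WT-labelled MUNC, MYOD-/- labelled EV and MYOD-/- labelled MUNC with no overlap between neighbours. Mylpf rose by 4.25 ± 0.35 (log2 fold change ± SE, adjusted p = 1.86e-05) in WT-labelled MUNC, 6.30 ± 0.39 (adjusted p = 2.82e-06) in MYOD-/- labelled EV and 6.55 ± 0.38 (adjusted p = 2.66e-06) in MYOD-/- labelled MUNC cells. In WT-labelled EV cells its log2 change of 0.92 ± 0.34 did not pass (adjusted p = 0.0552), although the DM and GM libraries did not overlap. This value lay near the threshold: it passed with DESeq2 (adjusted p = 0.0281), with no filter (0.0384) and with a filter of 5 CPM (0.0459), and was at 0.220 without DM replicate 1.

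Myl1, the gene of the fast essential chains, had 7 and 0 estimated counts in WT-labelled EV GM and 107 and 7 in WT-labelled EV DM, which overlap. It had 5 and 1 counts in WT-labelled MUNC GM and 452 and 396 in DM. In the MYOD-/- labelled lines it had 13 and 0 counts (EV) and 21 and 0 counts (MUNC) in GM. In DM these lines held 4009 and 3637 counts, or 265 and 205 TPM, with EV and 5118 and 4826 counts, or 259 and 193 TPM, with MUNC. The last 2 groups overlapped, and both lay above the 28.6 and 11.1 TPM of WT-labelled MUNC DM. The rise passed at a log2 fold change of 6.91 ± 1.37 (adjusted p = 0.00232) in WT-labelled MUNC, 8.69 ± 1.28 (adjusted p = 0.000330) in MYOD-/- labelled EV and 8.62 ± 1.24 (adjusted p = 0.000284) in MYOD-/- labelled MUNC cells. It did not pass in WT-labelled EV cells (3.39 ± 1.49, adjusted p = 0.0972), though it did without DM replicate 2, the library with 7 counts (4.24, adjusted p = 0.0315). These sizes rest on few GM counts: without GM replicate 2, the log2 change was 7.59 in MYOD-/- labelled EV and 7.68 in MYOD-/- labelled MUNC cells. Without GM replicate 1 the GM side was at 0 counts in both MYOD-/- labelled lines, and the fitted values of 15.14 and 15.06 are no bound.

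Myl4, the embryonic essential chain, had more TPM in every MYOD-/- labelled DM library than in any WT-labelled DM library. The same held for Myl1, Mylpf, Myl6b and Myl9. In GM the Myl4 difference between the genotype labels did not pass by edgeR with EV (adjusted p = 0.629) or with MUNC (adjusted p = 0.0926). The WT-labelled EV line had 4.25 and 4.93 TPM in GM and 2.94 and 2.47 TPM in DM. The WT-labelled MUNC line had 3.06 and 2.58 TPM in GM and 5.21 and 3.49 TPM in DM. The MYOD-/- labelled EV line went from 4.72 and 3.18 TPM to 42.1 and 29.8 TPM, and the MYOD-/- labelled MUNC line from 5.54 and 4.4 TPM to 71.6 and 46.9 TPM. Both MYOD-/- labelled DM groups stood above every other library. Myl4 rose by 2.94 ± 0.28 (adjusted p = 2.22e-05) and 3.31 ± 0.28 (adjusted p = 1.15e-05) in the MYOD-/- labelled EV and MUNC lines on the log2 scale. It fell by 0.93 ± 0.27 on the log2 scale in WT-labelled EV cells (adjusted p = 0.0190), and in WT-labelled MUNC cells its change of 0.42 ± 0.27 did not pass (adjusted p = 0.247). The fall in WT-labelled EV cells did not pass without GM replicate 2 (adjusted p = 0.0920), without DM replicate 1 (0.0738), without DM replicate 2 (0.0846) or with limma on log2(TPM + 1) (0.0885).

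**Figure D2:**
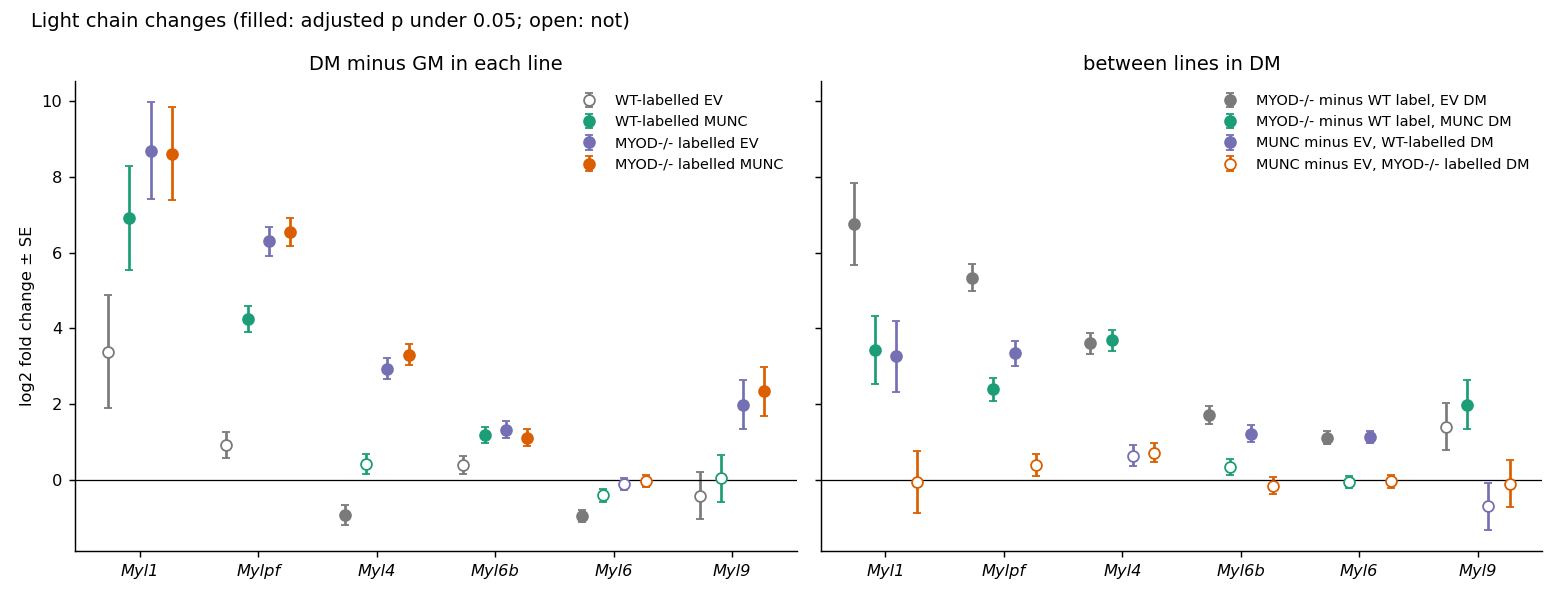
Log2 fold change with its SE for the 6 tested members, on the left for DM minus GM in the 4 lines and on the right for comparisons between lines in DM; filled points passed an adjusted p of 0.05. Mylpf in the left panel steps up from 0.92 in WT-labelled EV cells to 4.25, 6.30 and 6.55 in the other lines, and the orange points on the right, MUNC minus EV in MYOD-/- labelled cells, are all open.

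Of 4 tested fibroblast markers, 1 rose in WT-labelled EV and 3 in each other line, beside 19.2%, 20.5%, 23.5% and 24.4% of all genes that were higher in WT-labelled EV, WT-labelled MUNC, MYOD-/- labelled EV and MYOD-/- labelled MUNC. The matrix proteoglycan Dcn rose in all 4 lines, and Lum and the growth factor receptor Pdgfra in the 3 others, while Col1a1, a fibrillar collagen, passed in none (-0.16 ± 1.03 in WT-labelled EV and at most 2.55 elsewhere). The summed level of the 5 listed markers was 13.8 to 477 TPM in GM and 357 to 2174 TPM in DM, and Thy1 was at 0 in 5 of the 8 groups. Their part in the light chain results was not tested. In bulk RNA, fewer cells of a type and less RNA per cell cannot be told apart. The 4 endothelial markers summed to at most 0.259 TPM in the WT-labelled groups, 0.453 to 3.33 TPM in MYOD-/- labelled GM and 1.84 to 7.34 TPM in MYOD-/- labelled DM. The receptor Tek rose in the MYOD-/- labelled EV and MUNC lines (3.74 ± 0.60, adjusted p = 0.000582, and 4.61 ± 0.61, adjusted p = 0.000162), while the cadherin Cdh5 fell (-2.93 ± 1.08, adjusted p = 0.0471, and -2.70 ± 0.95, adjusted p = 0.0381). The 9 cardiac markers went from 45.8 to 102 TPM in GM to 124 to 162 TPM in DM in the MYOD-/- labelled EV line, and from 58.2 to 266 TPM to 159 to 169.8 TPM in the MYOD-/- labelled MUNC line. In the WT-labelled groups they summed to 62.1 to 109 TPM in GM and 49.5 to 63.4 TPM in DM. Only 3 (EV) and 4 (MUNC) of these 9 reached 1 TPM in both libraries of the MYOD-/- labelled DM groups. Cardiac troponin I, Tnni3, is a single marker of the 9. It rose in the MYOD-/- labelled lines (4.32 ± 1.02, adjusted p = 0.00563 with EV, and 2.20 ± 0.77, adjusted p = 0.0358 with MUNC). Myh6 and Myl7 were at 0 in both MYOD-/- labelled DM groups, and Nppa was at 0 in that with MUNC. The 5 leukocyte markers summed to 17.5 to 20.7 TPM in WT-labelled EV DM and to at most 5.03 TPM elsewhere. Of that sum Cd53 alone held 16.6 and 13.4 TPM, and it was the 1 of 4 tested that passed there (5.25 ± 0.68, adjusted p = 0.00016), with Cd68 at 0.52, Itgam at -0.16 and Lyz2 at -0.78. The part of these markers in the light chain results was not tested.

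The Myl1 reads came almost wholly from MLC3F. Its transcript (NM_001113387) held 92.3% to 100% of the Myl1 TPM in the 8 DM libraries. In WT-labelled MUNC DM, MLC3F was at 26.4 and 10.6 TPM and MLC1F (NM_021285) at 2.2 and 0.482 TPM. In MYOD-/- labelled EV DM, MLC3F was at 258 and 199.6 TPM and MLC1F at 7.44 and 5.48 TPM. In MYOD-/- labelled MUNC DM the values were 251 and 188 TPM against 8.19 and 4.39 TPM. MLC1F had 0 counts in all 4 WT-labelled EV libraries. The MLC3F share in the 5 GM libraries with any Myl1 count was 87.8% to 100%. Those libraries held 1 to 21 Myl1 counts each, so the GM shares rest on few counts and the test that follows could miss a shift. The mean DM minus GM difference within lines was 1.78 percentage points over 13 libraries (exact two-sided permutation within lines, p = 0.463; 0.463 after adjustment over 3 shares), and its sign turned to -0.773 points without MYOD-/- labelled EV GM replicate 1. In the GENCODE M21 models of the 2 transcripts, 699 bases are shared, 383 are only in MLC1F and 104 only in MLC3F. The RefSeq entries counted here have other lengths, 1003 bases for MLC1F and 826 for MLC3F, so the overlap is approximate for them. The split between the 2 was estimated from a part of the fragments only.

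In the test over 22334 transcripts, 25.4%, 27.1%, 30.3% and 31.2% passed in WT-labelled EV, WT-labelled MUNC, MYOD-/- labelled EV and MYOD-/- labelled MUNC cells. MLC3F rose by 6.80 ± 1.48 (adjusted p = 0.00698) in WT-labelled MUNC, 8.90 ± 1.46 (adjusted p = 0.00132) in MYOD-/- labelled EV and 8.73 ± 1.40 (adjusted p = 0.00123) in MYOD-/- labelled MUNC cells on the log2 scale. Without GM replicate 1, which left 0 GM counts, the fitted values were 15.07 and 15.01 in the MYOD-/- labelled EV and MUNC lines, and they were 7.80 and 7.75 without GM replicate 2. MLC1F had at most 1.97 counts in any GM library, so it entered the test only through DM libraries in which it is high, and its calls are given as a description. It rose by 6.49 ± 1.41 (adjusted p = 0.0117) and 7.07 ± 1.42 (adjusted p = 0.00845) in the MYOD-/- labelled EV and MUNC lines. With 1 library left out these values ran from 5.44 to 10.29 and from 6.16 to 10.25. In WT-labelled MUNC cells MLC1F passed as well (adjusted p = 0.0143), from 0 counts in both GM libraries to 43.8 and 21.8 in DM. The MLC3F call in WT-labelled MUNC cells did not hold without GM replicate 2 (adjusted p = 0.0592). The MLC1F call was lost in WT-labelled MUNC cells when GM replicate 1 (adjusted p = 0.0659), GM replicate 2 (0.0620) or DM replicate 1 (0.0557) was left out, and in MYOD-/- labelled EV cells without GM replicate 2 (0.0590).

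Outside the WT-labelled EV line, the transcript that held most of the Mylpf TPM differed between GM and DM. The gene lies on the plus strand of chromosome 7 (127208848 to 127214288 in GRCm38.p6). One transcript (NM_001347655) begins at an upstream exon and codes for 149 codons, and the other (NM_016754) begins downstream, at 127211608, and codes for 169 codons. The 250 bases before the downstream start lie in an intron of the upstream transcript. They are printed from the RefSeq promoter table of GRCm38.p6, at chr7:127211358-127211607, plus strand, with capitals for the only match of the E-box letters CANNTG:
Mylpf upstream region: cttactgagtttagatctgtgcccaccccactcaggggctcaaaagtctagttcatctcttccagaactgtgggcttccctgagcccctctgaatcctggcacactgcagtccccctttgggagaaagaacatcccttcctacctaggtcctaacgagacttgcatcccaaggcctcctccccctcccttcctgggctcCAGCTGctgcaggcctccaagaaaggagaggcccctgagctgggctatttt
The match begins 51 bases before the start. CANNTG reads the same on both strands, and 66.2% of 32851 promoter windows of this length hold a match, so it describes the sequence and marks no site. The MEF2 consensus and the CArG box, found in 2.92% and 1.47% of the windows on either strand, have no match in these letters.

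Mylpf had 24 to 71 estimated counts per GM library, of which 5.36 to 25.2 were assigned to the downstream-start transcript. The GM shares and the changes from GM therefore rest on few counts. In GM the upstream-start transcript held 65% to 89.2% of the Mylpf TPM. In DM its share was 59.6% and 74% in WT-labelled EV, 8.03% and 17% in WT-labelled MUNC, 2.94% and 6% in MYOD-/- labelled EV, and 1.6% and 6.04% in MYOD-/- labelled MUNC cells. Within each line the DM shares lay below the GM shares. The mean within-line difference was -56.9 percentage points (exact two-sided permutation within 4 lines, 1296 arrangements, p = 0.00154, the smallest this design can give; 0.00231 after adjustment over 3 shares). This share and that of Myl6 were chosen for testing after their values had been seen. The downstream-start transcript rose in all 4 lines, by 2.21 ± 0.53 (adjusted p = 0.0115) in WT-labelled EV, 5.63 ± 0.48 (adjusted p = 6.56e-05) in WT-labelled MUNC, 8.38 ± 0.55 (adjusted p = 1.35e-05) in MYOD-/- labelled EV and 8.63 ± 0.54 (adjusted p = 1.21e-05) in MYOD-/- labelled MUNC cells on the log2 scale. The upstream-start transcript changed less. It rose by 1.95 ± 0.64 (adjusted p = 0.0411) and 1.87 ± 0.63 (adjusted p = 0.0451) in the MYOD-/- labelled EV and MUNC lines, and its log2 changes of 0.49 ± 0.62 and 1.47 ± 0.63 in the WT-labelled EV and MUNC lines did not pass. In their GENCODE M21 models the transcripts share 600 bases, and 53 are found in the upstream-start model alone. The RefSeq entries counted here differ somewhat in length from these models.

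**Figure D3:**
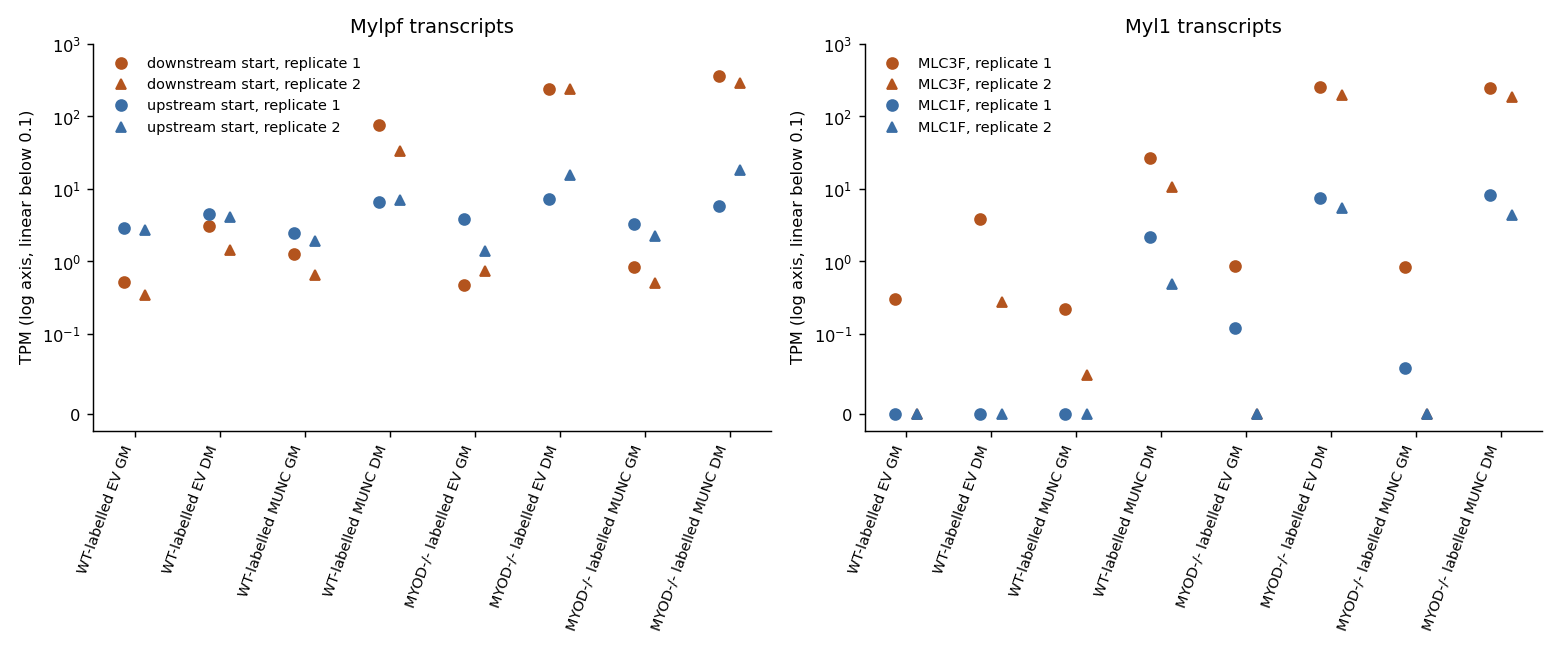
TPM of the 2 Mylpf transcripts (left) and the 2 Myl1 transcripts (right) on a log axis, linear below 0.1, in the 8 groups; circles are replicate 1 and triangles replicate 2. The downstream-start Mylpf transcript (brown, left) is under the upstream-start one (blue) in every GM library and above it in the 6 DM libraries outside WT-labelled EV; MLC3F (brown, right) is above MLC1F wherever either was counted.

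Myl6, the main essential chain in every library, fell in the WT-labelled EV line, and its change did not pass in the other 3. There it went from 2186 and 2140.0 TPM in GM to 1373 and 1077 TPM in DM, the lowest of all groups. The other 7 groups lay between 2140.0 and 3608 TPM. The log2 change was -0.95 ± 0.16 (adjusted p = 0.000968). In WT-labelled MUNC cells the change of -0.41 ± 0.16 did not pass (adjusted p = 0.0636), but it passed with DESeq2 (0.0345), with effective-length offsets (0.0354) and without GM replicate 1 (-0.59, adjusted p = 0.0260). The change was -0.11 ± 0.16 in MYOD-/- labelled EV (adjusted p = 0.621) and -0.03 ± 0.16 in MYOD-/- labelled MUNC cells (adjusted p = 0.888).

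The Myl6 transcript with the added exon (NM_001317218) gained share in all 4 lines. It held 21.4% to 30.7% of the Myl6 TPM in the 8 GM libraries and 42.6% to 63.5% in the 8 DM libraries, with no overlap. This share was chosen for testing after these values had been seen, so its p is given as a description. The mean within-line difference was 22.7 percentage points (exact two-sided permutation within lines, 1296 arrangements, p = 0.00154, the smallest possible; 0.00231 after adjustment over 3 shares), and it stayed between 20.7 and 24.6 points without any 1 library. The transcript without the exon (NM_010860) went from 1497 and 1584 TPM to 457 and 539 TPM in the WT-labelled EV line, where that with the exon was at 617 and 458 TPM in GM and 872 and 516 TPM in DM. In the MYOD-/- labelled EV line the transcript without the exon was at 1869 and 1934 TPM in GM and 1428 and 1517 TPM in DM, and that with the exon at 705 and 670.0 TPM in GM and 1281 and 1340.4 TPM in DM. The transcript without the exon changed by -1.75 ± 0.18 (adjusted p = 0.000103) in WT-labelled EV, -0.94 ± 0.18 (adjusted p = 0.00324) in WT-labelled MUNC and -0.58 ± 0.18 (adjusted p = 0.0309) in MYOD-/- labelled EV cells on the log2 scale. Its change of -0.46 ± 0.18 in MYOD-/- labelled MUNC cells did not pass (adjusted p = 0.0742). The transcript with the exon rose by 0.72 ± 0.23 (adjusted p = 0.0389) and 0.78 ± 0.23 (adjusted p = 0.0278) in the MYOD-/- labelled EV and MUNC lines. In the WT-labelled EV and MUNC lines its log2 changes of 0.21 ± 0.23 and 0.41 ± 0.23 did not pass. In their GENCODE M21 models the 2 transcripts share 646 bases, and 45 are found in the exon-containing model alone. The RefSeq entries counted here are longer, at 722 bases with the exon and 677 without it.

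**Figure D4:**
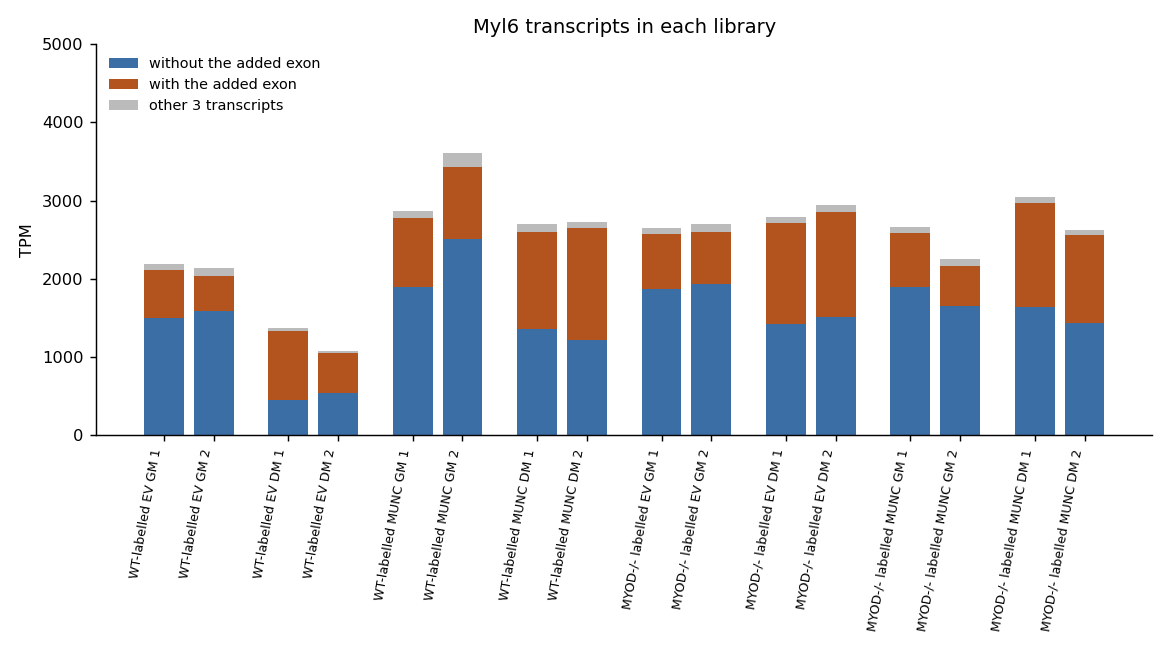
Stacked TPM of the Myl6 transcripts in each of the 16 libraries: without the added exon (blue), with it (brown) and the other 3 (grey). The brown part makes up 21.4% to 30.7% of the GM bars and 42.6% to 63.5% of the DM bars, and the 2 WT-labelled EV DM bars are the shortest.

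Myl6b, which lies next to Myl6 on chromosome 10 (128494157 to 128498685), rose in 3 lines. It was at 4.3 and 4.91 TPM in WT-labelled EV GM and at 5.69 and 7.78 TPM in DM. It went from 5.44 and 6.92 TPM to 17.8 and 14.7 TPM in WT-labelled MUNC, from 8.36 and 7.79 TPM to 22.2 and 25.8 TPM in MYOD-/- labelled EV, and from 8.42 and 8.41 TPM to 20.4 and 23.5 TPM in MYOD-/- labelled MUNC cells. The log2 rises were 1.19 ± 0.22 (adjusted p = 0.00174), 1.33 ± 0.23 (adjusted p = 0.000796) and 1.12 ± 0.22 (adjusted p = 0.00211). In WT-labelled EV cells the change of 0.40 ± 0.23 did not pass (adjusted p = 0.193), but it passed with limma on log2(TPM + 1) (0.45, adjusted p = 0.0440).

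Myl9, the smooth muscle and non-muscle regulatory chain, rose only in the MYOD-/- labelled lines by the threshold used. With EV it was at 108 and 40.2 TPM in GM and at 331 and 355 TPM in DM, and with MUNC at 91.8 and 16 TPM in GM and 328 and 321 TPM in DM. The GM libraries of both lines spread widely and the DM libraries hardly at all. Its rise was 1.99 ± 0.64 with EV (adjusted p = 0.0272) and 2.34 ± 0.65 with MUNC (adjusted p = 0.0129) on the log2 scale. The EV call did not hold without GM replicate 2 (1.40, adjusted p = 0.195), DM replicate 1 (2.03, adjusted p = 0.0704) or DM replicate 2 (1.87, adjusted p = 0.0929). The MUNC value was 4.05 without GM replicate 1 and 1.54 without GM replicate 2, and passed in both cases. In the WT-labelled EV line Myl9 was at 136 and 150.1 TPM in GM and at 139 and 102 TPM in DM, and in the WT-labelled MUNC line at 41.1 and 85.8 TPM in GM and at 75 and 76.5 TPM in DM. Neither change passed (-0.42 ± 0.62, adjusted p = 0.631, and 0.05 ± 0.62, adjusted p = 0.957). The difference in Myl9 response between the genotype labels did not pass either (2.41 ± 0.89 with EV, adjusted p = 0.188; 2.28 ± 0.89 with MUNC, adjusted p = 0.340), except that the MUNC difference passed without MYOD-/- labelled GM replicate 1 (adjusted p = 0.0186).

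Smooth muscle markers were read beside Myl9. Of the 7 listed, 5 fell in the WT-labelled EV line, where the Myl9 change did not pass, and 1 fell in the WT-labelled MUNC line, against 18.3% and 19.2% of all genes lower. Among the same 7, 2 and 3 rose in the MYOD-/- labelled EV and MUNC lines, against 23.5% and 24.4% of all genes higher. There the log2 changes of Cnn1 (-0.59 and -0.94) and Smtn (-0.30 and -0.42) were below 0 and did not pass. The summed level of the 7 was 264 to 819 TPM in MYOD-/- labelled GM and 1716 to 1926 TPM in MYOD-/- labelled DM. It was 1213 to 1305 TPM in GM and 229 to 330.5 TPM in DM in the WT-labelled EV line. In the WT-labelled MUNC line it was 913 to 1733 TPM in GM and 955 to 1203 TPM in DM. Acta2, smooth muscle actin, was at 951 and 1058 TPM in WT-labelled EV GM and at 266 and 168 TPM in DM. In the MYOD-/- labelled EV line it went from 663 and 489 TPM to 1728 and 1775 TPM. Acta2 alone thus held most of the summed 1900.0 to 1917 TPM in MYOD-/- labelled EV DM. The part of these genes in the Myl9 result was not tested.

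The make-up of the pool of these 8 genes followed from their levels. Myl12a and Myl12b, other light chains read below, are outside this pool. In the sum of the 8 genes' TPM, the 5 striated members (Myl1, Myl2, Myl3, Myl4 and Mylpf) held 0.14% to 0.381% in the GM libraries. Their share in DM was 0.944% and 0.696% in WT-labelled EV, 4% and 1.93% in WT-labelled MUNC, 15% and 12.9% in MYOD-/- labelled EV, and 17% and 15.5% in MYOD-/- labelled MUNC cells. Myl6 held 89.6% to 98.6% of the sum everywhere outside the MYOD-/- labelled DM groups and 74.5% to 77.1% in them. In every library Myl6 transcripts outnumbered those of the striated members together.

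**Figure D5:**
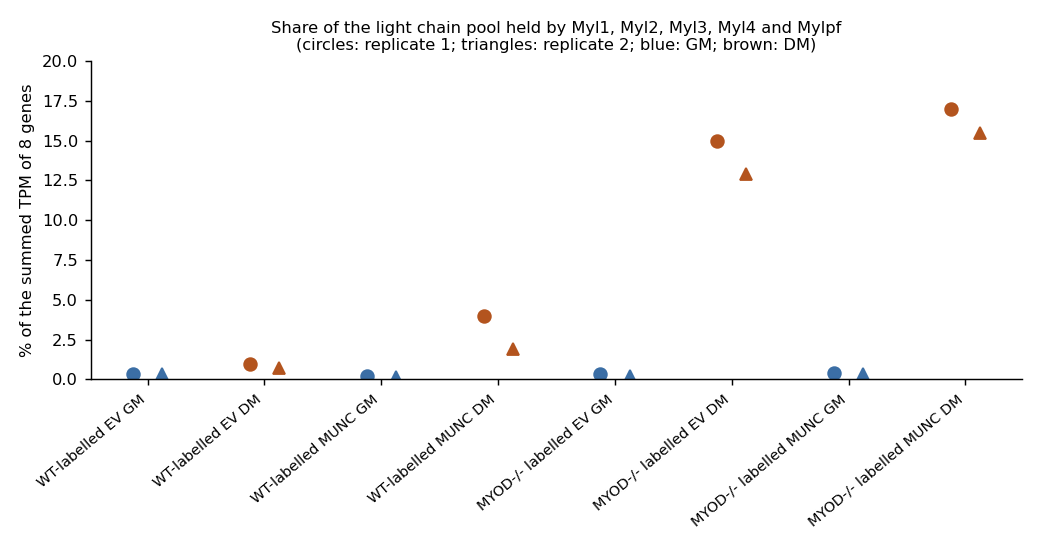
Percent of the summed TPM of the 8 light chain genes held by Myl1, Myl2, Myl3, Myl4 and Mylpf in each library; circles are replicate 1, triangles replicate 2, blue is GM and brown is DM. The 4 MYOD-/- labelled DM libraries lie at 12.9% to 17%, above the WT-labelled MUNC DM libraries at 1.93% and 4%.

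Set against each other by genotype label, the lines differed in DM, and label and line cannot be told apart. With EV, 5 of 6 tested members were higher in MYOD-/- labelled than in WT-labelled DM and 0 lower (background 31.4%, 15.3% higher and 16.1% lower). The log2 differences were 6.76 ± 1.08 for Myl1 (adjusted p = 0.000917), 5.34 ± 0.36 for Mylpf (adjusted p = 4.43e-06), 3.61 ± 0.28 for Myl4 (adjusted p = 1.19e-05), 1.72 ± 0.23 for Myl6b (adjusted p = 0.000299) and 1.12 ± 0.16 for Myl6 (adjusted p = 0.000507). The Myl1 difference was 9.48 without WT-labelled replicate 1 and 5.89 without WT-labelled replicate 2, and passed in both cases. Myl9 differed by 1.41 ± 0.63 and did not pass (adjusted p = 0.112). With MUNC, 4 were higher and 0 lower (background 22.7%, 12.8% higher and 9.89% lower). They were Myl4 (3.69 ± 0.28, adjusted p = 9.02e-06), Mylpf (2.39 ± 0.31, adjusted p = 0.000280), Myl1 (3.43 ± 0.90, adjusted p = 0.0188) and Myl9 (1.99 ± 0.64, adjusted p = 0.0450). The calls of Myl1 and Myl9 with MUNC did not hold when any 1 of the 4 DM libraries was left out: adjusted p was 0.0616 and 0.189 without WT-labelled replicate 1, 0.163 and 0.179 without WT-labelled replicate 2, 0.0788 and 0.120 without MYOD-/- labelled replicate 1, and 0.0586 and 0.131 without MYOD-/- labelled replicate 2. Myl1 did not pass with DESeq2 either (0.196).

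In GM the genotype labels gave 0 calls among the 6 members with EV (background 10.4%, 4.58% higher and 5.77% lower) and 0 with MUNC (background 9.99%, 4.98% higher and 5.02% lower) by edgeR. At an unadjusted p under 0.05 there were 1 and 2, and DESeq2 called 1 and 0. The nearest to the threshold was Myl6b with EV, at 8.36 and 7.79 TPM in MYOD-/- labelled and 4.3 and 4.91 TPM in WT-labelled GM (0.78 ± 0.23, adjusted p = 0.0531), which passed with DESeq2 (0.0140). Myl9 with MUNC differed by -0.29, but it passed at -2.01 without MYOD-/- labelled replicate 1 (adjusted p = 0.0384).

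MUNC was set against EV within each genotype label. In WT-labelled DM, 4 members were higher with MUNC and 0 lower (background 33.3%, 15.6% higher and 17.7% lower). Mylpf differed by 3.35 ± 0.33 (adjusted p = 2.79e-05), Myl1 by 3.26 ± 0.95 (adjusted p = 0.0221), Myl6b by 1.22 ± 0.22 (adjusted p = 0.00173) and Myl6 by 1.14 ± 0.16 (adjusted p = 0.000342) on the log2 scale. The Myl1 value was 6.00 without EV DM replicate 1, and its call did not hold without EV DM replicate 2 (2.41, adjusted p = 0.111), without MUNC DM replicate 1 (2.54, adjusted p = 0.122) or with DESeq2 (adjusted p = 0.185). Myl4 (0.64 ± 0.27, adjusted p = 0.0875) and Myl9 (-0.69 ± 0.62, adjusted p = 0.430) did not pass. In WT-labelled GM, Myl6 was higher with MUNC (0.59 ± 0.16, adjusted p = 0.0308) and no other member passed (1 of 6, background 13.8%, 6.04% higher and 7.71% lower). That call did not hold without EV replicate 1 (adjusted p = 0.111), EV replicate 2 (0.145) or MUNC replicate 2 (0.38, adjusted p = 0.243).

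In MYOD-/- labelled cells, edgeR called 0 of the 6 members for MUNC against EV in GM (background 0.00%) and 0 in DM (background 0.00%). At an unadjusted p under 0.05 there were 0 and 1 members, and DESeq2 also called 0 and 0. The 1 was Myl4 in DM, at 71.6 and 46.9 TPM with MUNC and 42.1 and 29.8 TPM with EV (0.72 ± 0.25, adjusted p = 1.00). Over the 6 members the log2 difference ran from -0.45 to 0.35 in GM and from -0.15 to 0.72 in DM. MUNC itself was at 283 to 750.0 TPM in the MYOD-/- labelled MUNC libraries, against 10398 to 15551 TPM in the WT-labelled ones. The MUNC comparisons under the genotype labels are therefore of unlike MUNC levels, and the part of this was not tested.

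Whether the response to differentiation differed between lines was tested as an interaction. Between the genotype labels with EV, 2 of 6 members passed, both with the larger rise in MYOD-/- labelled cells (background 2.58%, 1.66% higher and 0.922% lower): Mylpf by 5.38 ± 0.50 (adjusted p = 0.000956) and Myl4 by 3.87 ± 0.39 (adjusted p = 0.00135). With MUNC the same pair passed (background 1.38%, 1.24% higher and 0.140% lower), Myl4 by 2.89 ± 0.38 (adjusted p = 0.00422) and Mylpf by 2.31 ± 0.47 (adjusted p = 0.0366). The last call did not hold without 6 of the 8 libraries in turn. These were WT-labelled GM replicate 1 (adjusted p = 0.179) and 2 (0.0600), WT-labelled DM replicate 2 (0.111), MYOD-/- labelled GM replicate 2 (0.116), and MYOD-/- labelled DM replicate 1 (0.111) and 2 (0.0864). Myl1 differed by 5.31 ± 2.75 with EV (adjusted p = 0.352), with at most 21 Myl1 counts in any GM library. Between MUNC and EV in WT-labelled cells, 1 member passed (background 3.33%, 1.24% higher and 2.09% lower), Mylpf with a rise larger by 3.33 ± 0.48 with MUNC (adjusted p = 0.00360). Between MUNC and EV in MYOD-/- labelled cells 0 passed by edgeR (background 0.00%), 0 had an unadjusted p under 0.05 and DESeq2 called 0. The genotype comparisons with EV, the MUNC comparisons and the differentiation comparisons share groups, so their counts are not independent of each other.

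The partners of the light chains were read from listed genes, beside 19.2%, 20.5%, 23.5% and 24.4% of all genes higher and 18.3%, 19.2%, 19.7% and 20.4% lower in WT-labelled EV, WT-labelled MUNC, MYOD-/- labelled EV and MYOD-/- labelled MUNC. Of 10 sarcomeric heavy chains, 4 were tested; 0 rose in WT-labelled EV and 2 in each other line, with a median log2 change of -0.04, 2.96, 4.14 and 3.99 in WT-labelled EV, WT-labelled MUNC, MYOD-/- labelled EV and MYOD-/- labelled MUNC. Both were the same in each line, Myh3 and Myh1, the embryonic and an adult fast heavy chain. Myh3 was at 0.317 and 0.17 TPM in WT-labelled EV DM, 11.7 and 2.54 in WT-labelled MUNC DM, 76.5 and 81.5 in MYOD-/- labelled EV DM and 112 and 93.7 in MYOD-/- labelled MUNC DM. Of 7 tested thick filament partners, 3 rose in WT-labelled EV and 6 in each other line, with medians of 3.34, 3.95, 4.74 and 4.21. Unc45b, a myosin chaperone, rose in all 4 lines, from 4.76 ± 1.10 in WT-labelled EV (adjusted p = 0.00574) to 7.90 ± 0.88 in MYOD-/- labelled MUNC cells (adjusted p = 6.25e-05). Of the 4 non-muscle and smooth muscle heavy chains, 1 fell in WT-labelled EV (Myh10, -1.07 ± 0.13, adjusted p = 0.000132), 1 rose in MYOD-/- labelled EV (Myh10, 0.39 ± 0.13, adjusted p = 0.0332) and 0 passed in the MUNC lines by edgeR.

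Of the other light chains, Myl12a and Myl12b, regulatory chains of non-muscle myosin, were tested, and Myl7 and Myl10 were not. Myl12a was at 549 to 1663 TPM and Myl12b at 158 to 537 TPM over the 16 libraries; the Myl12b range overlapped the 16 to 355 TPM of Myl9. Myl12a fell in WT-labelled EV (-0.47 ± 0.16, adjusted p = 0.0362) and rose in MYOD-/- labelled EV (0.50 ± 0.16, adjusted p = 0.0225) and MUNC cells (0.69 ± 0.16, adjusted p = 0.00424). Myl12b rose in the 3 lines other than WT-labelled EV, by 0.58 to 1.11 on the log2 scale. The pair are close copies of each other, so fragments may have been divided between them. Of 12 tested light chain kinases, phosphatase subunits and their regulators, 0 rose and 1 fell in WT-labelled EV, 4 rose and 2 fell in WT-labelled MUNC, 4 rose and 1 fell in MYOD-/- labelled EV, and 2 rose and 1 fell in MYOD-/- labelled MUNC cells. Over all genes 37.5%, 39.8%, 43.2% and 44.8% passed in either direction. Mylk, the smooth muscle and non-muscle kinase, rose by 2.03 ± 0.64 (adjusted p = 0.0267) in WT-labelled MUNC, 2.66 ± 0.67 (adjusted p = 0.00812) in MYOD-/- labelled EV and 2.64 ± 0.66 (adjusted p = 0.00779) in MYOD-/- labelled MUNC cells. Mylk2, the skeletal muscle kinase, rose in WT-labelled MUNC (1.78 ± 0.30, adjusted p = 0.000885) and MYOD-/- labelled EV cells (1.18 ± 0.33, adjusted p = 0.0138). Ppp1r14b, an inhibitor of the phosphatase, fell in all 4 lines, with log2 changes from -1.11 to -0.52.

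Myog, the transcription factor that drives terminal muscle differentiation, rose in all 4 lines and reached 1.76 and 1.01 TPM in WT-labelled EV, 12.3 and 11.5 in WT-labelled MUNC, 35.8 and 36.5 in MYOD-/- labelled EV and 53.1 and 43.1 in MYOD-/- labelled MUNC DM. Of the 8 tested muscle transcription factors, 1, 3, 2 and 3 rose in WT-labelled EV, WT-labelled MUNC, MYOD-/- labelled EV and MYOD-/- labelled MUNC, and 0 fell, beside 19.2%, 20.5%, 23.5% and 24.4% of all genes higher. Of 3 tested SRF genes, 1 fell and 0 rose in each WT-labelled line, beside 18.3% (EV) and 19.2% (MUNC) of all genes lower. In MYOD-/- labelled EV cells 1 rose and 0 fell, and in MYOD-/- labelled MUNC cells 0 passed. The falls were those of Srf itself, in WT-labelled EV (-1.16 ± 0.41, adjusted p = 0.0435) and WT-labelled MUNC cells (-1.40 ± 0.41, adjusted p = 0.0184).

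The genes whose log2 CPM followed each member most closely over the 16 libraries were sought among 10142 genes with a mean of at least 5 CPM, as a description. Myl1 ran closest to Mybph, a thick filament protein (Pearson r = 0.994), the matrix proteoglycan Lum (0.990) and fast troponin T, Tnnt3 (0.985). Mylpf ran closest to Myh3 (0.995), Itga10 (0.989) and Sh3pxd2b (0.986). Myl4 ran closest to Casq2, a calcium-binding protein of the sarcoplasmic reticulum (0.978), Arhgap26 (0.975) and Heg1 (0.974). For Myl6 the first was Minpp1 (0.957), for Myl6b Cpe (0.958) and for Myl9 Inka2 (0.894). Among the members themselves, Myl1 and Mylpf had r = 0.974 and Mylpf and Myl6b 0.900, while Myl6 had r between -0.101 and 0.232 with the other 5. The 16 points share 4 lines and 8 groups, so each r reflects mostly the differences between groups.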

How the data were processed

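Poly(A) RNA of 16 libraries was sequenced as pairs of 75-base reads (NEBNext Ultra Directional kit, NextSeq, per the labels' protocols). Per the submitters' processing notes, bcl2fastq, kallisto and mm10 were used; their versions and the strand setting are not given. The authors deposited, per the file headers, estimated counts, effective lengths and TPM for 35818 transcripts per library; kallisto divides fragments that fit several transcripts. Gene symbols were matched for 35487 transcripts through RefSeq's GRCm38.p6 annotation and for 193 through GENCODE M21; 138 without a symbol (0.28% to 0.941% of counts) were left out.

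Estimated counts were summed per gene, rounded and tested in R 4.3.3 with edgeR 4.0.16 (TMM, filterByExpr, quasi-likelihood test, 1 mean per group, 14972 genes, 8 residual degrees of freedom, common dispersion 0.0474) and Benjamini-Hochberg adjustment over all genes, threshold 0.05; transcripts likewise. The code was tested on simulated data. DESeq2 1.42.0, limma 3.58.1 on log2(TPM + 1), other filters and scalings, a replicate block and leaving out each library were alternatives. Transcript shares were tested by exact permutation within lines. All 8 members are named, with list genes that passed and the 3 genes of most similar pattern. Members and lists were chosen with earlier results of these data known.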

Additional observations from a re-analysis of the deposited data

Results flagged for a closer look

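The response to differentiation differed between lines in 5 interaction tests by edgeR's quasi-likelihood test. Between the genotype labels with EV, the log2 rise in MYOD-/- labelled cells exceeded the change in WT-labelled cells by 5.38 ± 0.50 for Mylpf (adjusted p = 0.000956) and by 3.87 ± 0.39 for Myl4 (adjusted p = 0.00135). With MUNC the excess was 2.89 ± 0.38 for Myl4 (adjusted p = 0.00422) and 2.31 ± 0.47 for Mylpf (adjusted p = 0.0366). The latter call did not hold without 6 of the 8 libraries in turn, and the value ran from 1.93 to 2.78. Between MUNC and EV in WT-labelled cells the excess was 3.33 ± 0.48 for Mylpf (adjusted p = 0.00360). Groups of 2 libraries are too small for a test of single outlying libraries.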

How the results depend on the processing

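Of 96 pairs of a tested member and a comparison, 34 passed. None of these (0 of 34) turned sign under any setting run; 8 were lost under at least 1, and of those 7 when a library was left out, 3 with another tool, filter or scaling and 0 under the replicate block. Another 48 passed nowhere, and 24 of them turned sign somewhere. The labels do not say what a replicate number marks. Zrsr1 separated the numbers in every group, and deviations of same-numbered libraries correlated at -0.01 to 0.71 over 28 pairs of groups (median 0.25, above 0.1 in 23), which is a hint from the data that the libraries may be paired, not a design. With the replicate block, 4 members passed for differentiation in WT-labelled EV cells (2 without; added were Mylpf at adjusted p = 0.0121 and Myl1 at 0.0359), 1 for the genotype label in EV GM (Myl6b, 0.0213), 1 in MUNC GM (Myl4, 0.0265), 2 for MUNC in WT-labelled GM (Myl4 added, 0.0338) and 2 for the MUNC interaction in WT-labelled cells; DESeq2 also gave 2 for the last (Myl4). The block also added Myl4 for MUNC in WT-labelled DM (0.64, adjusted p = 0.0278). The genotype label in EV GM gave 1 call (Myl6b) in place of 0 under DESeq2, DESeq2 size factors, a filter of 5 CPM, limma and effective-length offsets. Limma gave 5 in place of 2 for the genotype interaction with EV. At an adjusted p of 0.01 the counts were 1 for differentiation in WT-labelled EV, 2 for the genotype label in MUNC DM, 0 for MUNC in WT-labelled GM and 1 for the genotype interaction with MUNC.

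Leaving out 1 library at a time gave 1 to 2 calls for differentiation in WT-labelled EV, 0 to 1 for MUNC in WT-labelled GM, 0 to 1 for the genotype label in MUNC GM, 2 in every case for the genotype label in MUNC DM and 1 to 3 for the genotype interaction with MUNC. The MLC3F change in WT-labelled MUNC ran from 6.09 to 8.13, the MLC1F change from 6.77 to 8.68 there and from 5.44 to 10.29 in MYOD-/- labelled EV (fitted values, some against 0 counts), and the MLC3F share difference from -0.773 to 2.37 points. A lone library was assumed to vary like the other groups. Myl9 in the genotype comparison of MUNC GM (-0.29) turned to 0.37 and 0.46 without WT-labelled and MYOD-/- labelled GM replicate 2, and was -2.01 without MYOD-/- labelled GM replicate 1. The causes were not tested.

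Over all genes, the genotype interactions gave 387 (EV) and 206 (MUNC) calls and the MUNC interaction in WT-labelled cells 499, against 977, 504 and 1153 with DESeq2, 984, 519 and 895 with limma and 898, 388 and 1033 under the replicate block; the genotype label in GM gave 1550 (EV) and 1496 (MUNC) against 2405 and 2379 under the block. For MUNC in MYOD-/- labelled DM, 0 became 4 with DESeq2. With fewer than 25 counts of Myl1 in any GM library, depth limits its fold changes.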

Other observations

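Some light chain values in GM followed the replicate number, a pattern seen after the values were known. Myl1 had 5 to 21 estimated counts in the 4 GM libraries numbered 1 and 0 to 1 in those numbered 2. Myl9 was at 108 and 91.8 TPM in the MYOD-/- labelled GM libraries numbered 1 and at 40.2 and 16 TPM in those numbered 2, whereas the WT-labelled MUNC GM libraries had 41.1 and 85.8 TPM. Myl2 counts of 1 to 2 were found in all 4 MYOD-/- labelled DM libraries and in 2 of the other 12.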
